A study of Sus scrofa with 30 samples.

Results

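The comparison was of trimethylation of histone H3 at lysine 27 (H3K27me3) in pig (Sus scrofa) blastocysts and in morulae, the preceding stage. Members were chosen by sample title: the 2 H3K27me3 blastocyst libraries and the 2 H3K27me3 morula libraries, 4 of the 30 libraries of the series, with peaks on chromosomes 1 to 18. The embryos had been fertilised in vitro (IVF), no treatment or genotype is labelled in either group, and both groups were immunoprecipitated with the same Millipore antibody (07449) in ULI-NChIP-seq, a native chromatin immunoprecipitation protocol for very few cells. The rest of the series held H3K27me3 at 4 earlier stages, H3K4me3 from oocyte to blastocyst and H3K4me3 after siRNA against KDM5B and KDM5C. Whole embryos were used as far as the labels say, and neither the number of embryos nor their ages were given. Blastocysts hold an inner cell mass and a trophectoderm, which were not separated, so a mark carried by more cells and a mark denser in each cell cannot be told apart. Whether the pair of replicates at a stage came from separate collections of embryos is not labelled, so spreads and p-values here describe these 4 libraries alone and may be technical.

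H3K27me3 is written by Polycomb repressive complex 2 (PRC2), with EZH1 or EZH2 as the catalytic subunit and EED and SUZ12 as core partners. EED also binds the finished mark and stimulates the enzyme, which lets H3K27me3 extend along chromatin from places where it already lies. In somatic and embryonic cells the mark typically lies over CpG-rich promoters of silent developmental regulators, whereas mammalian oocytes also carry it in broad domains away from promoters. A promoter that carries both H3K27me3 and H3K4me3, the mark of active or poised promoters, is called bivalent.

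The deposited data were 1 broad peak list per library, with no reads, so all values below are lengths, counts and positions of called peaks. The lists hold no read totals, and the caller's background, recovered from the fold and −log10 p columns, served as a guide to depth: it was 0.397 and 0.456 reads per position in blastocysts, against 0.170 and 0.182 in morulae, a ratio of 2.43. The weakest peak listed had a −log10 q of 1.11 and 1.01 in blastocysts, against 1.52 in both morula libraries, and a fold enrichment of 2.86 and 2.75, against 3.42 and 3.39. The caller's background and the weakest peak called therefore moved with stage, and their part in the differences was not tested. Depth itself was not measured. The 2 blastocyst lists shared 0.394 of their joint length (Jaccard index) and the 2 morula lists 0.237, whereas a blastocyst and a morula list shared 0.088 to 0.132. No list of peaks shows expression, so the labelled stage could not be checked against expressed markers.

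Blastocysts carried far more H3K27me3 peak length than morulae. Peaks covered 77.7 and 98.1 Mb in the blastocyst libraries, against 10.3 and 12.9 Mb in the morula libraries. Both blastocyst values lay above both morula values, with a mean of 87.9 ± 14.4 Mb against 11.6 ± 1.85 Mb (SD, n = 2 each). The ratio of the means was 7.56, and the difference of 2.92 on the log2 scale was 3.62 times the pooled SD of the 6 H3K27me3 stages. An exact two-sided permutation test gave p = 0.33, the smallest value that 2 libraries against 2 can reach, so no comparison of these groups could pass 0.05 by this test. In number, there were 61021 and 72874 peaks in blastocysts, against 13251 and 16019 in morulae. When only the 13251 strongest peaks of each list were kept, the ratio of mean lengths was 2.95, and with peaks of −log10 p 5 or more it was 2.57.

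Set in the course of development, the blastocyst lists were the longest of the 6 stages with H3K27me3. Metaphase II (MII) oocytes had 69.0 and 59.7 Mb, 2-cell embryos 1.98 and 1.25 Mb, 4-cell embryos 17.4 and 27.2 Mb, 8-cell embryos 5.50 and 33 Mb and morulae the values above. The 8-cell libraries spanned a wider range than any other pair. The extent in blastocysts was thus nearer to that of MII oocytes than to that of any stage between, but the places were largely different: a blastocyst and an MII list shared 0.084 to 0.104 of their joint length. The caller's background was 0.977 and 0.626 in MII, 1.11 and 0.796 in 2-cell, 1.01 and 1.03 in 4-cell and 0.302 and 0.568 in 8-cell libraries. Its part in the differences between stages was not tested.

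**Figure D1:**
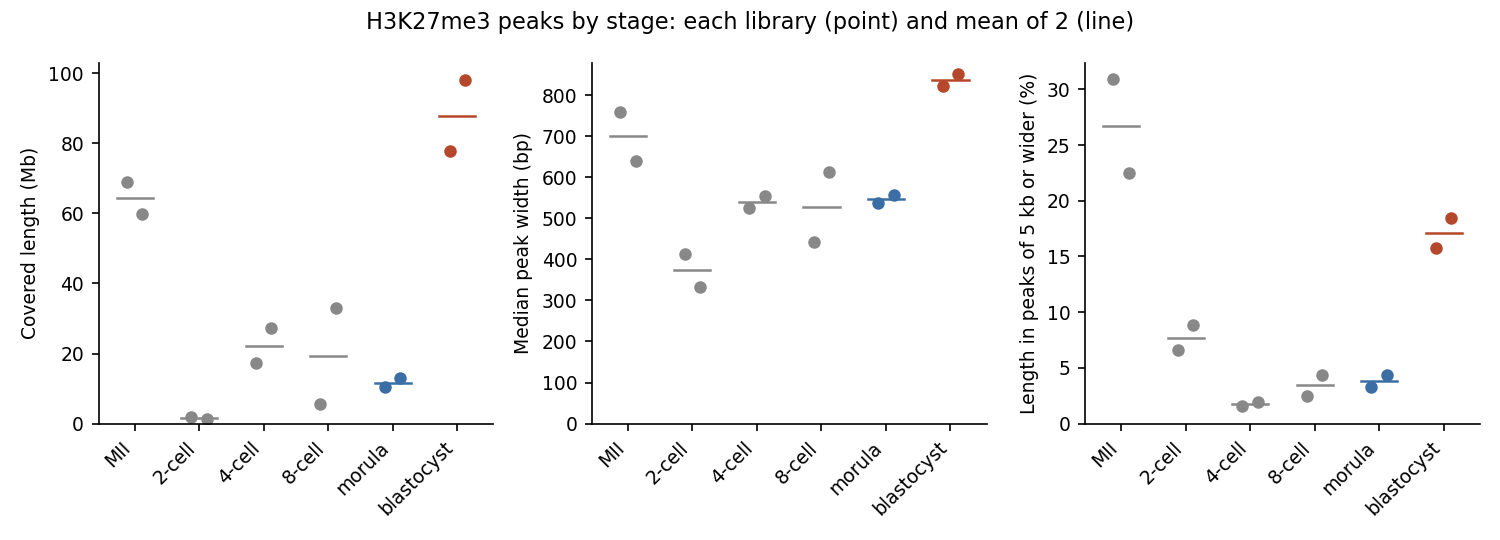
Covered length (Mb), median peak width (bp) and percent of covered length in peaks of 5 kb or wider for each H3K27me3 library (points) with the mean of 2 libraries (line), by stage. The blastocyst points lie above the morula points in all 3 panels, at 77.7 and 98.1 Mb against 10.3 and 12.9 Mb in the first.

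Blastocyst peaks were also wider. The median width was 821 and 852 bp in blastocysts, against 537 and 556 bp in morulae. The groups did not overlap, and the difference of the means, 290 bp, was 4.41 times the pooled SD of the 6 stages (exact two-sided permutation p = 0.33). Broad peaks, here those of 5 kb or more, numbered 1585 and 2338 in blastocysts, against 47 and 76 in morulae, a ratio of 31.9. They held 15.7 and 18.5% of the covered length in blastocysts, against 3.28 and 4.34% in morulae, a difference of 13.3 percentage points and 4.91 times the pooled SD (exact two-sided permutation p = 0.33). Peaks of 10 kb or more numbered 234 and 352 in blastocysts and 6 and 8 in morulae, and the widest spanned 49247 and 81025 bp in blastocysts, against 22559 and 26587 bp in morulae.

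Most morula cover lay inside the longer blastocyst lists. Of the length covered in each morula library, 91.3 and 91.1% was also covered in at least 1 blastocyst library. This share depends on the length of the list set against, and the 2 blastocyst lists joined covered 126 Mb. Of each morula list, 43.2 and 34.5% was covered in the other morula list. With equal numbers of peaks, or stronger peaks only, the share in blastocysts was lower, as given at the end. When the peaks of both morula libraries were merged, 5874 regions held peaks of both, and a blastocyst peak touched 5712 (97.2%) and 5774 (98.3%) of them, by at least 1 bp. Only 35 were touched in neither blastocyst library. Where a morula region was touched, the touching blastocyst peaks had a median length of 2930.5 and 3188 bp, against 1354.5 and 1346 bp for the morula regions themselves, a median ratio of 2.01 and 2.24.

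The touching blastocyst peaks ran past the edges of morula regions on either side. The median length beyond the edges of a touched region was 1457.5 and 1705 bp, and 65.4 and 70.6% of touched regions had blastocyst cover beyond both edges. Neighbouring morula regions were also joined: 2081 and 2316 blastocyst peaks, 13.7 and 14.8% of those that touched any, ran over 2 or more separate morula regions, with up to 13 and 18 in a single peak. Broad blastocyst peaks in particular sat on morula peaks, since 89.8 and 82.6% of them touched a morula peak of either library, against 24.98 and 21.4% of all blastocyst peaks. A wide peak has more room to touch another, and no correction for width was made.

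Blastocyst cover declined with distance from morula peaks over the whole range measured. It was 79.1 and 82.2% inside morula peaks of either library, 40.8 and 45.9% in the first 1 kb outside them, 16.0 and 20.2% from 1 to 2 kb and 7.54 and 10.1% from 2 to 5 kb. Farther out it was 3.67 and 5.23% from 5 to 10 kb, 1.68 and 2.41% from 20 to 50 kb and 0.738 and 1.01% beyond 200 kb. Other lists were also denser near morula peaks, though less steeply: H3K27me3 of MII oocytes covered 10.2 and 9.06% of the first 1 kb and 0.681 and 0.613% beyond 200 kb, and blastocyst H3K4me3 covered 21.7 and 21.9% and 2.91 and 2.97%. Replicates set the scale for lists of 1 stage, where the second blastocyst list covered 21.9% of the first 1 kb around the peaks of the first list and 0.200% beyond 200 kb.

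**Figure D2:**
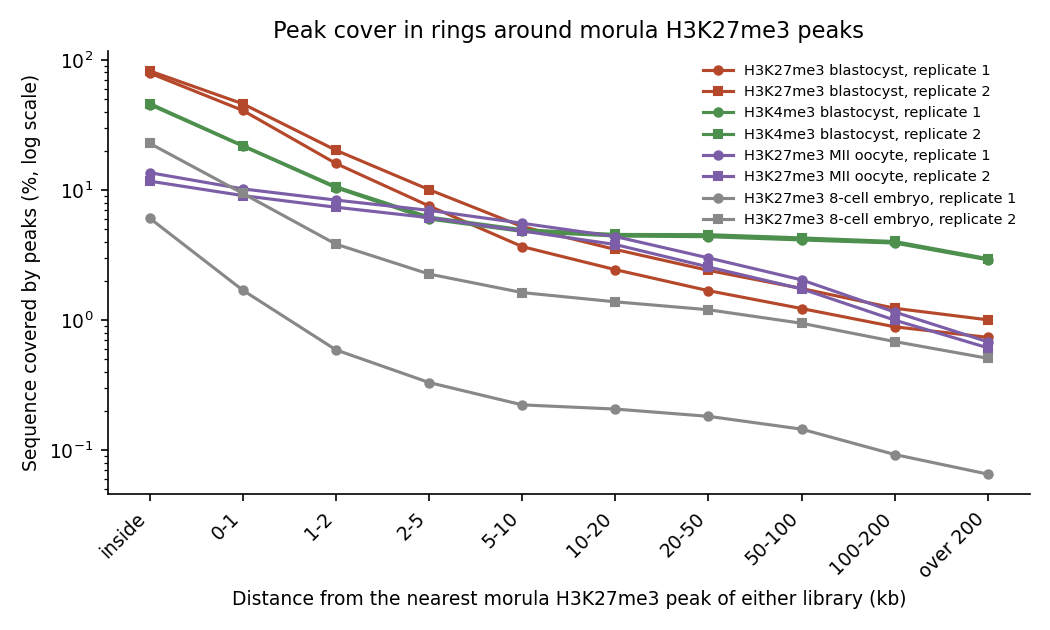
Percent of sequence covered by peaks (log scale) inside and at increasing distance (kb) from morula H3K27me3 peaks of either library, with 1 line per library. Blastocyst H3K27me3 runs from 79.1 and 82.2% inside to 0.738 and 1.01% beyond 200 kb, and lies above the other lists up to 5 kb.

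To separate spreading from new regions, each base of blastocyst cover was placed in 1 of 4 classes by morula peaks of either library. Cover inside morula peaks made up 19.1 and 15.8% of blastocyst length. Spread cover, which lay outside morula peaks but in a blastocyst peak that touched one, made up 29.1 and 28%, or 22.6 and 27.5 Mb. Near cover, in peaks that touched none but came within 10 kb, made up 18.4 and 18.9%, and new cover, in peaks more than 10 kb from any morula peak, 33.4 and 37.4%, or 26.0 and 36.7 Mb. In both libraries more length was new than spread.

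The balance turned when only cover found in both blastocyst libraries (49.7 Mb) was counted, of which 27.2% was inside, 31.1% spread, 17.4% near and 24.2% new. New cover also recurred in a smaller share: 46.0 and 32.3% of the length of new peaks was covered in the other blastocyst library, against 80.1 and 71.7% of the length of peaks that touched a morula peak. Single lists give the scale of replicate error. A blastocyst list set against 1 morula list had 42.6 to 53.1% new and 22.5 to 26.5% spread cover. The same division between the 2 blastocyst lists gave 4.44 and 7.65% new and 20.3 and 25.9% spread, and between the 2 morula lists 20.2 and 26.4% new and 21.2 and 22.6% spread. These shares depend on the length of the list set against, and the stages differ in length: a morula list set against 1 blastocyst list had 2.14 to 3.01% new cover, and with equal numbers of peaks the new share of blastocysts against morulae of either library was 16.9%. Against 1 list, the new share of blastocysts lay above that of replicates, and the new share of morulae lay below it. The 16.9% was against both morula lists joined, and equal numbers of peaks were not run against 1 list. Whether the new share separates the stages from replicates at equal length is therefore not known. The spread share overlapped that of replicates.

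**Figure D3:**
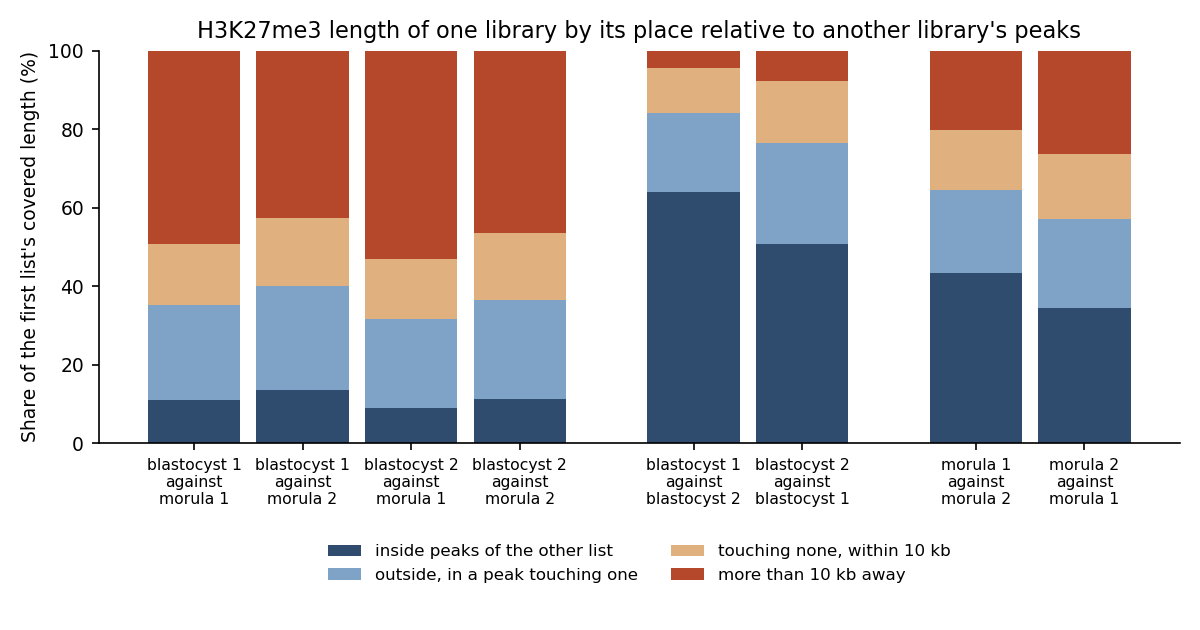
Percent of the first list's covered length inside the peaks of a second list, outside them but in a peak touching one, touching none within 10 kb, or more than 10 kb away. The 4 bars of blastocyst against morula have 42.6 to 53.1% in the last class, the bars of replicates 4.44 to 26.4%.

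Which class a blastocyst peak fell in went with its strength. Among peaks with a −log10 q under 1.25 in the authors' lists, 6.52 and 5.99% touched a morula peak and 65.4 and 67.6% were new. Among those of 5 or more, 92.0 and 93.1% touched one and 6.17 and 4.07% were new. With blastocyst peaks of −log10 q 2 or more set against all morula peaks, a choice made after seeing the data, spread cover averaged 44.9% and new cover 15.3% of the length, against 28.5 and 35.4% with all peaks. New peaks were also narrow, with a median of 603 and 657 bp, against 1856 and 2026 bp for touching peaks and 715 and 766 bp for near peaks, and 92 and 201 of the 31016 and 40095 new peaks were broad.

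**Figure D4:**
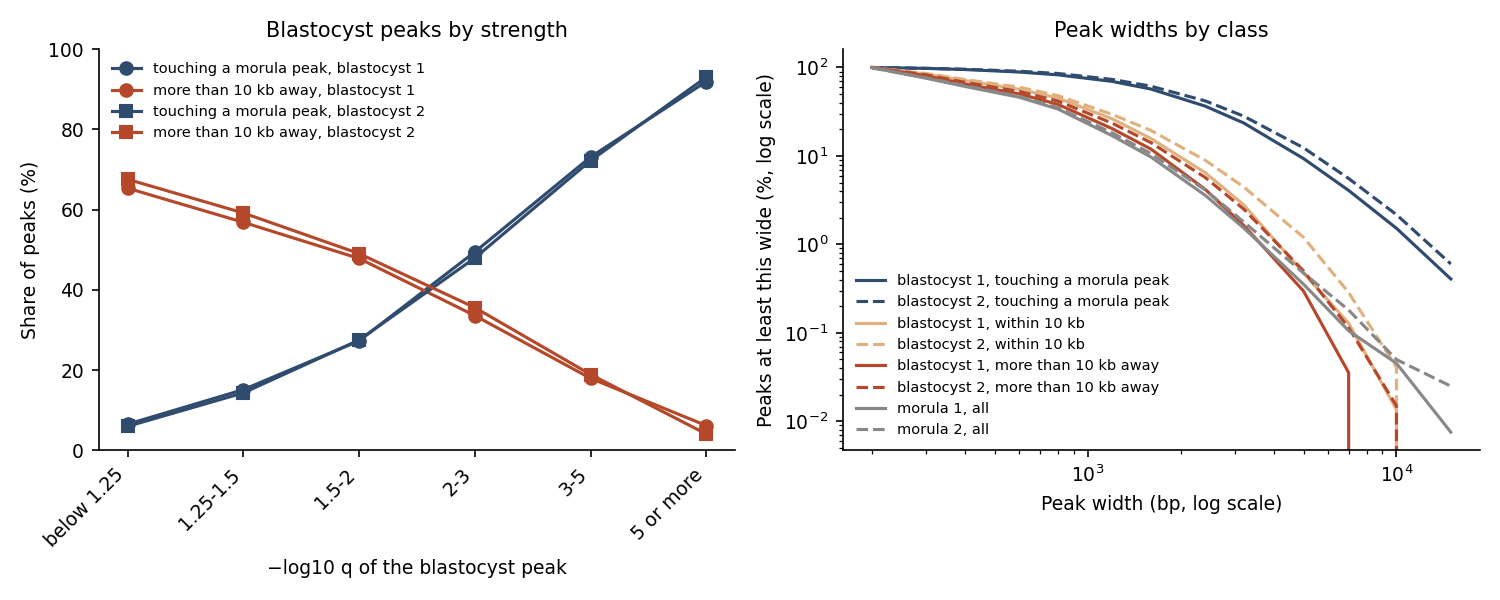
Left, percent of blastocyst peaks that touch a morula peak or lie more than 10 kb from any, by the −log10 q of the blastocyst peak. Right, percent of peaks at least as wide as the value on the x axis (bp, both axes on log scales), by class; touching peaks run widest, with medians of 1856 and 2026 bp against 603 and 657 bp for new peaks.

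Spread domains are shown by 4 examples, taken as the shared morula regions with the most blastocyst length added by touching peaks, 1 per 200 kb (all coordinates on susScr11). Over FOXC1, a forkhead regulator of mesoderm and eye development, and the neighbouring GMDS, which makes GDP-fucose, a domain at chromosome 7, 837370 to 870375, was covered for 33006 and 31886 bp in blastocysts, against 7711 and 10001 bp in several separate peaks in morulae. On chromosome 16, 76918171 to 76959237, 432 kb from the nearest coding gene ADAMTS16, cover was 37919 and 41067 bp in blastocysts and 13520 and 16996 bp in morulae. On chromosome 3, 132521638 to 132548232, 107 kb from TMEM18, it was 24487 and 25639 bp in blastocysts and 3426 and 2894 bp in morulae. All 3 domains had cover in MII oocytes, from 9607 to 18571 bp, none in the 2-cell and 4-cell libraries, and 0 and 322 to 668 bp in the 8-cell libraries.

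The widest peak of the second blastocyst library was a different case. It spanned chromosome 5, 40126314 to 40207338, in which the blastocyst libraries covered 77072 and 81025 bp and the morula libraries 37827 and 52093 bp. Every other H3K27me3 library had peaks there too, from 4298 bp in a 2-cell library to 76330 bp in an 8-cell library, and H3K4me3 peaks covered 80880 and 80937 bp of it in blastocysts. The domain was therefore in peaks whatever the antibody.

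New shared stretches, present in both blastocyst libraries and more than 10 kb from any morula peak, numbered 16252, with a median width of 523 bp, and 34 of them were broad. The widest, 7390 bp at chromosome 2, 137970911 to 137978300, lay 1.51 kb from SLC25A48, a gene of the mitochondrial carrier family. Another of 7389 bp at chromosome 13, 120085408 to 120092796, lay in a gene-poor stretch with SOX2, a pluripotency factor, as its nearest coding gene 416 kb away. The next lay at chromosome 15, 104326248 to 104333525, over AOX4, an aldehyde oxidase gene, and at chromosome 3, 110687677 to 110694949, inside PLB1, a phospholipase gene. No MII oocyte library had a peak in any of these 4 domains, and blastocyst H3K4me3 covered between 0 and 844 bp of each. Being new relative to morulae did not mean being unmarked earlier. The domain near SLC25A48 had 872 and 0 bp in 2-cell, 2032 and 2095 bp in 4-cell and 1101 and 407 bp in 8-cell libraries, and that in PLB1 had 0 bp in 2-cell, 650 and 1584 bp in 4-cell and 454 and 3641 bp in 8-cell libraries. The domain nearest to SOX2 had 225 bp in 1 8-cell library, and that over AOX4 none at any earlier stage.

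Shared morula stretches with no blastocyst peak were few and short, 62 of 6217, with a median width of 197.5 bp. The widest was 923 bp at chromosome 14, 106105915 to 106106837. The only one of the 4 widest that lay over a coding gene was 674 bp at chromosome 15, 78186424 to 78187097, in DLX1, a homeobox gene of forebrain interneurons, and all 4 H3K4me3 libraries of these stages covered it in full. DLX1 itself was marked in all 4 H3K27me3 libraries, with 9518 and 11402 bp within 5 kb of its ends in blastocysts and 3484 and 6214 bp in morulae.

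Distance to coding genes differed little in size. Of covered length, 83.9 and 84.1% lay more than 5 kb from any coding gene end in blastocysts, against 81.3 and 81.4% in morulae. The groups did not overlap, and the difference of 2.62 percentage points was 6.46 times the pooled SD of the 6 stages (exact two-sided permutation p = 0.33). Both stages lay below the 87.6% of the chromosomes that is as far away. The direction depended on which peaks were counted: with equal numbers of peaks the blastocyst share was lower than the morula share (difference of -2.19 points), with −log10 p of 5 or more it was lower by more (-4.16), and with a fold of 3.5 or more the shares were close (-0.0612).

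The classes differed in the same respect. Touching peaks had a median distance to a gene end of 37.2 kb in both blastocyst libraries, near peaks 38.8 and 38.4 kb and new peaks 42.0 and 42.7 kb. By distance to the nearest gene, bodies included, the order differed. The medians were 7.32 and 6.815 kb for touching, 9.30 and 9.20 kb for near and 6.01 and 5.90 kb for new peaks. Touching peaks were the widest, and no correction for width was made. Within 5 kb of a gene end lay 17.3 and 17.4% of touching length, 13.6 and 13.4% of near length and 15.7 and 15.4% of new length. Cover inside gene bodies was 41.5 and 41.6% in blastocysts and 42.6 and 43.0% in morulae, below the 47.7% of the chromosomes that lies in genes. Beyond 500 kb from any coding gene end lay 4.12 and 3.89% in blastocysts and 3.68 and 3.51% in morulae, against 6.87% of the chromosomes.

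The classes also stood differently to the other mark. Blastocyst H3K4me3, which covered 4.96 and 5.11% of the chromosomes, overlapped 33.9 to 37.1% of touching length, 10.6 to 12.1% of near length and 12.2 to 14.3% of new length. Of morula H3K27me3 length, 47.3 to 51.6% lay in blastocyst H3K4me3 peaks and 52.7 to 62.2% in morula H3K4me3 peaks. Morula H3K4me3 covered 5.34 and 5.93% of the chromosomes. Overlap with H3K27me3 of MII oocytes, which covered 3.04 and 2.64% of the chromosomes, was 13.0 to 15.7% for touching, 19.2 to 21.5% for near and 11.8 to 13.8% for new length. Part of the blastocyst and most of the morula H3K27me3 length thus lay in regions that the H3K4me3 antibody also recovered. The part of such regions in the results was not tested.

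Across chromosomes the blastocyst excess was general. The ratio of mean covered length, blastocyst over morula, was above 6 on each of the 18, from 6.37 on chromosome 13 to 9.33 on chromosome 18. The new share of the first blastocyst library ran from 29.6% on chromosome 13 to 38.0% on chromosome 12.

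A coding gene was called marked when at least 1 bp of a peak fell less than 1 kb from its start or its end. Marked genes numbered 4165 and 4861 in blastocysts and 921 and 1126 in morulae, of 18722 on chromosomes 1 to 18. The mark was gained, in both blastocyst libraries and neither morula library, at 1944 genes, 10.4% of all. It was lost, in the opposite sense, at 7 genes, 0.0374% of all, and present in all 4 libraries at 494, 2.64% of all, while 12607 genes were unmarked throughout. With peaks of −log10 q 2 or more in all lists 627 genes gained the mark, with equal numbers of peaks 414, and without blastocyst replicate 1 or 2, where a single blastocyst library had to be marked, 3601 and 2926.

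Part of the gained genes were marked in oocytes. Of the 1944, 604 (31.1%) were marked in both MII libraries, against 11.3% of all coding genes. The share was no higher than at other marked genes. It was 35.4% of genes marked in all 4 libraries and 32.9% of all genes marked in both blastocyst libraries. Seen from the oocyte, 28.5% of genes marked in both MII libraries gained the mark, against 7.53% of genes unmarked in both. Blastocyst H3K4me3 was at an end of 81.3% of gained genes in both libraries, against 73.9% of all coding genes. Of the gained genes, 12.7 and 14.8% had an end in a blastocyst peak that touched a morula peak, although 38.7% had an end within 10 kb of a morula peak, against 27.9% of all genes.

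The 7 genes that lost the mark had little of it in morulae. They were GDF15, a stress-induced cytokine gene, HMGB2, a chromatin protein gene, the ribosomal protein genes RPS27A and RPS20, CLHC1, CCDC50 and LOC100520720, with RPS27A and CLHC1 sharing the same peaks at adjoining ends. Within 5 kb of its ends HMGB2 (chromosome 14, 16709966 to 16712288) had 0 bp in both blastocyst libraries, against 487 and 734 bp in morulae. In the others but LOC100520720, blastocysts had 0 bp and morulae 199 to 309 bp. LOC100520720 had 0 and 689 bp in blastocysts and 212 and 1234 bp in morulae. All 7 carried H3K4me3 at an end in every library of both stages. The number of lost genes was unstable, at 12 to 16 with 1 blastocyst library left out and 79 to 105 with 1 morula library left out, and 42 with equal numbers of peaks.

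Developmental regulators were among the gained genes. The lists below were chosen with earlier results of these data known, so their counts are descriptions, to be read beside those of all coding genes. Of these, 10.4% gained the mark, 16.5% had it in both blastocyst libraries and 2.75% in both morula libraries. The mark was in none of the 4 libraries at 12607 of the 18722, and the median change within 5 kb was 78 bp. Within 5 kb, both blastocyst values lay above both morula values at 30.3% of all coding genes and below them at 0.0748%. Many gains rested on weaker peaks. Under 5 stricter settings (−log10 q of 2 and of 3, equal numbers of peaks, fold of 3.5 and −log10 p of 5), 7, 22, 6, 7 and 15 of the 52 genes named from the lists had no cover in any of the 4 libraries. The 22 with −log10 q of 3 or more included HOXC12, PITX1, NKX6-2, FOXE1, FOXQ1, WNT8B, OTX2, HAND1, PTGS2, HHEX and HNF4A. Of 36 HOX genes, which pattern the body axis, 10 gained the mark, 4 had it in all 4 libraries, 21 in both blastocyst libraries and none lost it. Their median change was 4318.5 bp. H3K4me3 was also present in both blastocyst libraries at 20 of those 21. Over all coding genes with H3K27me3 in both blastocyst libraries, this share was 84.5% (2610 of 3088).

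Of the HOX genes that gained the mark, HOXA10, HOXA9 and HOXC12 changed most within 5 kb. HOXA10 (chromosome 18, 45393525 to 45403259) had 12839 and 11964 bp within 5 kb of its ends in blastocysts, against 875 and 865 bp in morulae, and the adjoining HOXA9 shared those morula peaks and had 11514 and 11354 bp in blastocysts. HOXC12 (chromosome 5, 19167174 to 19169684) had 9918 and 8280 bp in blastocysts and 0 bp in both morula libraries. Cover was uneven within a cluster: the change in mean was 9099 bp at HOXC12 and 127 bp at HOXC6, and HOXC6 was chosen after its values were seen. Of genes marked in all 4 libraries, HOXB8 (chromosome 12) had 11083 and 13531 bp in blastocysts and 2243 and 774 bp in morulae, and HOXB13 12344 and 10274 bp against 1902 and 1342 bp. At these 5 genes both blastocyst values were several times both morula values. All 5 had H3K27me3 in both MII libraries (1115 to 10706 bp), and the 8-cell libraries had none except 476 bp at HOXA10 in 1 library.

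Of 81 other homeobox and PAX genes, 24 gained the mark, 31 had it in all 4 libraries and 66 in both blastocyst libraries. Of those 66, 63 had H3K4me3 as well, beside the 84.5% given above. The median change was 4614 bp. MSX1, a regulator of craniofacial and limb development (chromosome 8, 5628381 to 5632375), had 11110 and 11039 bp in blastocysts and 2927 and 842 bp in morulae. PITX1, which specifies hindlimb identity, had 6997 and 8911 bp in blastocysts and 0 bp in both morula libraries, and NKX6-2, of the ventral neural tube, 5984 and 10025 bp against 0 and 419 bp. Marked at both stages were EMX2, of the forebrain and urogenital system, with 15337 and 15879 bp in blastocysts and 9221 and 12525 bp in morulae, and LHX1, of the head organiser, with 14662 and 14657 bp against 10310 and 9585 bp. EMX2 and LHX1 were thus extensively covered in morulae already.

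Of 63 SOX, TBX, FOX, ZIC, GATA and basic helix-loop-helix regulators, 18 gained the mark, 10 had it in all 4 libraries and 43 in both blastocyst libraries, with a median change of 4039.5 bp. FOXE1, of the thyroid, had 7584 and 9426 bp in blastocysts and 639 and 264 bp in morulae. TBX1, of the pharyngeal arches, had 6308 and 14145 bp in blastocysts and 1506 and 3667 bp in morulae. FOXQ1 had 7529 and 7981 bp in blastocysts and 971 and 0 bp in morulae, but with peaks of −log10 p 5 or more its difference turned to -485.5 bp. TBX5, of the heart and forelimb, and TBX2 were marked in all 4 libraries, TBX5 with 11154 and 10649 bp in blastocysts and 867 and 3365 bp in morulae, TBX2 with 10693 and 8601 bp against 3402 and 3528 bp.

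Among 52 WNT, FGF, BMP and hedgehog ligand genes, 20 gained the mark, 7 had it in all 4 libraries and 36 in both blastocyst libraries, with a median change of 2492.5 bp. WNT11, a ligand of non-canonical WNT signalling (chromosome 9, 10413182 to 10435158), had 8806 and 10055 bp in blastocysts and 232 and 257 bp in morulae. WNT7B had 4968 and 8248 bp in blastocysts and 599 and 1448 bp in morulae, and WNT8B 6444 and 5008 bp against 0 and 709 bp. FGF3, a ligand of inner ear development, had 11591 and 10239 bp in blastocysts and 748 and 2587 bp in morulae, and the BMP family ligand GDF6 11102 and 9927 bp against 3331 and 3355 bp. WNT8B was the only one of these 5 with no H3K27me3 in the MII libraries.

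**Figure D5:**
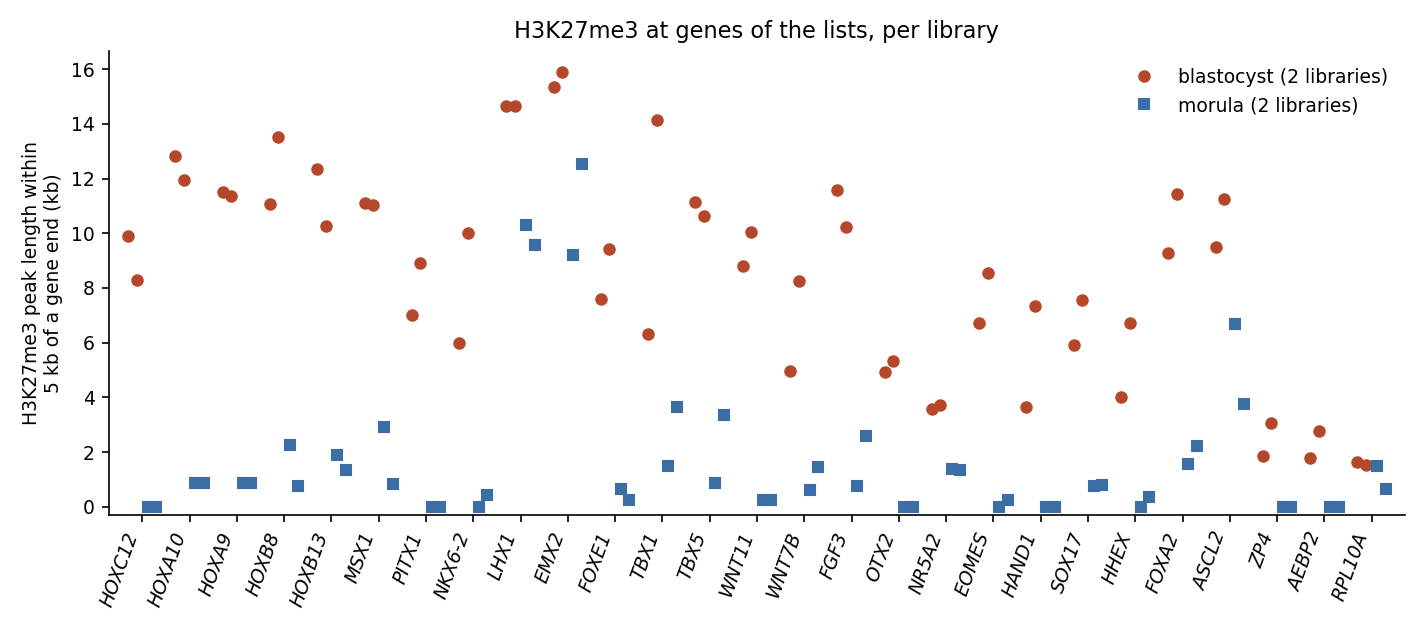
H3K27me3 peak length (kb) within 5 kb of a gene's ends in each of the 2 blastocyst (red circles) and 2 morula (blue squares) libraries, for genes of the lists. Blastocyst points lie above the morula points of the same gene, and among the genes plotted EMX2 and LHX1 have the most cover in morulae.

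The blastocyst's own lineages were described by 3 lists. Of 30 pluripotency and inner cell mass genes, 4 gained the mark, 1 had it in all 4 libraries, 7 in both blastocyst libraries and 16 in none, and the median change was 312.5 bp. OTX2, a regulator of epiblast and anterior identity, had 4912 and 5343 bp in blastocysts and 0 bp in both morula libraries. NR5A2, an orphan nuclear receptor, had 3558 and 3705 bp in blastocysts and 1375 and 1342 bp in morulae, and DPPA5, an RNA-binding protein gene, 1884 and 2850 bp against 0 bp in both. PRDM14, which represses differentiation genes in mouse embryonic stem cells, was marked in all 4 libraries, with 5388 and 3377 bp in blastocysts and 1587 and 1935 bp in morulae. Of members without the mark, POU5F1, SOX2 and both NANOG entries, chosen after their values were seen, had 0 bp in all 4 libraries.

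Of 29 trophectoderm genes, 6 gained the mark, 1 had it in all 4 libraries, 11 in both blastocyst libraries and 15 in none, with a median change of 765.5 bp. EOMES, a T-box factor required in mouse trophoblast (chromosome 13, 14209590 to 14216184), had 6709 and 8555 bp in blastocysts and 0 and 232 bp in morulae. HAND1, which drives giant cell formation in mouse trophoblast, had 3664 and 7339 bp in blastocysts and 0 bp in both morula libraries, and PTGS2, a prostaglandin synthase gene, 2711 and 4875 bp against 0 bp in both. KRT19, an epithelial keratin gene marked in all 4 libraries, had 4802 and 4913 bp in blastocysts and 1365 and 1603 bp in morulae, and its difference turned to -146 bp with peaks of −log10 p 5 or more. Since whole blastocysts were used, the cells that carried the mark at these genes are not known. Other members were chosen after their values were seen. CDX2 had 0 and 2553 bp in blastocysts and 457 and 404 bp in morulae, and TEAD4, ELF5 and GRHL2 had 0 bp in all 4 libraries. GATA3 had 8364 and 8686 bp in blastocysts and 322 and 715 bp in morulae, and TFAP2A 7046 and 8385 bp against 1235 and 2758 bp. At 15 of the 29 members both blastocyst values lay above both morula values, and at 0 below. Over all coding genes 30.3% lay above.

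Of 23 hypoblast and endoderm genes, 6 gained the mark, 4 had it in all 4 libraries, 11 in both blastocyst libraries and 11 in none, with a median change of 1669.5 bp. SOX17, an endoderm regulator, had 5916 and 7543 bp in blastocysts and 773 and 781 bp in morulae. HHEX, of anterior endoderm, had 4009 and 6703 bp in blastocysts and 0 and 353 bp in morulae, and HNF4A, of visceral endoderm and liver, 3208 and 4766 bp against 0 bp in both. FOXA2, a pioneer factor of endoderm, was marked in all 4 libraries, with 9295 and 11431 bp in blastocysts and 1581 and 2240 bp in morulae, as was the basement membrane collagen gene COL4A2, with 5761 and 11943 bp against 1031 and 1650 bp.

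Of 27 oocyte and maternal-effect genes, 7 gained the mark, none had it in all 4 libraries and 10 had it in both blastocyst libraries, with a median change of 527.5 bp. LHX8, a homeobox factor of oocyte formation, had 5984 and 8183 bp in blastocysts and 976 and 1285 bp in morulae. ZAR1, which binds maternal mRNA, had 2791 and 2027 bp in blastocysts and 0 bp in both morula libraries, and ZP4, of the zona pellucida, 1844 and 3062 bp against 0 bp in both. None of the 27 was marked in both MII oocyte libraries.

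The genes of the Polycomb machinery itself came next. Of 27 Polycomb and H3K27 demethylase genes, 4 gained the mark, none had it in all 4 libraries, 5 had it in both blastocyst libraries and 17 in none, with a median change of 226.5 bp. AEBP2, a PRC2 accessory subunit gene, had 1799 and 2765 bp in blastocysts, PHF19, another, 1724 and 1342 bp, and RNF2, the ubiquitin ligase of PRC1, 588 and 1683 bp, with 0 bp in both morula libraries at all 3. AEBP2 and RNF2 had no cover at either stage under any stricter setting. Of 15 DNA methylation and demethylation genes none gained the mark, 1 had it in both blastocyst libraries and 12 had it in none, with a median change of 106 bp.

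Of 37 imprinted genes, 7 gained the mark, 9 had it in all 4 libraries and 20 in both blastocyst libraries, with a median change of 1297 bp. IGF2, the paternally expressed growth factor gene (chromosome 2, 1469183 to 1496417), had 1438 bp in the first blastocyst library and a mean of 2090 bp over both, against 0 bp in both morula libraries, beside 16298 and 13437 bp in MII oocytes. No library of either stage had cover at IGF2 under any of the 5 stricter settings. PEG10 had 1864 and 3186 bp in blastocysts and 0 and 365 bp in morulae. MEST had 2039 and 2547 bp against 727 and 0 bp, and turned to -363.5 bp with equal numbers of peaks and to 0 bp in the other stricter settings. ASCL2, a maternally expressed regulator of the mouse placenta, was marked in all 4 libraries, with 9491 and 11262 bp in blastocysts and 6700 and 3774 bp in morulae. TBX2, given above, is also on the imprinted list.

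Ribosomal protein genes are active in all growing cells, and 74 of 75 carried H3K4me3 in both blastocyst libraries, against 73.9% of all coding genes. H3K27me3 peaks met an end of 50 and 52 of the 75 in blastocysts and of 29 and 37 in morulae, against 2 and 0 in MII oocytes. In the 8-cell libraries the counts were 2 and 36. Of all 18722 coding genes, 4165 and 4861 were marked in blastocysts and 921 and 1126 in morulae. In MII oocytes 3040 and 2803 were marked, and in the 8-cell libraries 220 and 1344. Of the 75, 9 gained the mark, 2 lost it and 17 had it in all 4 libraries, and the median change was 341.5 bp. The peaks were short: RPS27 had 1899 and 382 bp in blastocysts, RPS18 2006 and 503 bp and RPL24 639 and 1693 bp, with 0 bp in both morula libraries at all 3. RPL24 had no cover at either stage under any stricter setting. RPL10A, marked at both stages, had 1630 and 1534 bp in blastocysts and 1491 and 662 bp in morulae. H3K4me3 peaks covered 7277 to 12580 bp at these 4 genes in blastocysts, and the part of H3K4me3 chromatin in the H3K27me3 peaks was not tested.

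Markers of cells that can accompany oocytes and embryos were also counted. Of 17 cumulus and granulosa cell genes, 3 gained the mark, 1 had it in all 4 libraries and 12 had it in none, with a median change of 0 bp. PTGS2, given above, is on this list too. FOXL2, an ovarian granulosa regulator, had 4870 and 5313 bp in blastocysts and 967 and 220 bp in morulae, NR5A1, of steroidogenic cells, 4098 and 4344 bp against 380 and 1111 bp, and GREM1, a BMP antagonist marked in all 4 libraries, 4584 and 3914 bp against 280 and 2070 bp. Of 17 sperm genes 2 gained the mark and 9 had it in none, with a median change of 176.5 bp. They were ODF2, of the sperm tail, with 251 and 583 bp in blastocysts, and IZUMO1, of sperm and egg fusion, with 1092 and 899 bp, both with 0 bp in morulae and with no cover at either stage under any stricter setting.

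In the wider surroundings of genes the excess was nearly universal. Within 50 kb of an end, both blastocyst values lay above both morula values at 82.1% of the 18722 genes and below at 0.0534%, with a median change of 2647.5 bp. The largest excess was at SMOC2, a matricellular protein gene (chromosome 1, 1193163 to 1332739), with 102342 and 126519 bp in blastocysts and 7706 and 13323 bp in morulae. KIF1A, an axonal transport motor gene, had 74856 and 93051 bp in blastocysts and 3905 and 7137 bp in morulae, and GMDS, named above, 94295 and 99310 bp against 16643 and 22917 bp.

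CFAP46, a gene of motile cilia, had 65074 and 87935 bp in blastocysts and 3238 and 4583 bp in morulae. This cover was of weaker peaks: with −log10 q of 3 or more CFAP46 had none within 50 kb at either stage. COL4A1, a basement membrane collagen gene beside COL4A2, had 64094 and 94402 bp against 6280 and 9117 bp, and TRABD2B, whose product cleaves WNT proteins, 66065 and 88365 bp against 7566 and 9585 bp. THBS2, a thrombospondin gene, had 70273 and 85453 bp in blastocysts and 6200 and 13875 bp in morulae, and IKZF1, a lymphoid regulator, 62791 and 75585 bp against 3426 and 6219 bp. All 8 had wide cover in MII oocytes as well, from 50538 bp at GMDS to 153939 bp at SMOC2, so these surroundings were extensively marked both in oocytes and in blastocysts. The largest deficits were small, at NKAIN1 with 0 and 361 bp in blastocysts and 571 and 806 bp in morulae, LOC100525933 with 0 bp in both against 220 and 769 bp, CCDC50 with 0 bp in both against 272 and 299 bp and TMEM230 with 473 and 230 bp against 704 and 537 bp.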

How the data were processed

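H3K27me3 was measured in pig embryos by ULI-NChIP-seq, with 2 libraries per stage. The authors deposited 1 broad peak list per library: peak positions, the fold enrichment of each peak as a ratio to background, and its −log10 p-value and −log10 q-value. Bowtie2 2.4.1, MACS2 and susScr11 are named per the submitters' processing notes. The MACS2 version, an input control, the threshold and read filters are not given in the sources used here. Peaks on chromosomes 1 to 18 were used. Lengths, overlaps and distances were computed with numpy 2.4.6, exact permutation tests with scipy 1.17.1 and plots with matplotlib 3.10.9. The code was tested on simulated data. The 18722 coding genes came from RefSeq's table for Sscrofa11.1, the same assembly, which gave no strand, so both gene ends were used. No sequence is printed.

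A gene was marked when a peak met the 1 kb beside either end. Named were the 8 genes with the largest excess and the 4 with the largest deficit within 50 kb, at most 1 per 200 kb, up to 3 members of each list that gained and 2 that kept or lost the mark, ranked within 5 kb, and the 4 widest new, 4 most spread and 4 widest vanished regions. The spacing of 200 kb was applied to regions too, although the rule gave it for genes only, and the genes that lost the mark were named after their values were seen. Members and lists were chosen with earlier results of these data known. Of 443 symbols listed, 418 matched. A pattern for olfactory receptor symbols matched 0 genes, so that list has no result. Of the genes that the rule names, 1 is not reported here.

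Alternatives were stricter −log10 q, equal numbers of peaks, joined peaks, chromosome X, other windows and limits, each library left out and replicate blocks. Minimum fold, minimum −log10 p and stronger blastocyst peaks against all morula peaks were added after seeing the data. Whether replicate numbers pair the libraries is not labelled. Over 69977 bins of 10 kb the differences between replicates correlated at 0.018 between the stages. This value cannot decide it, since libraries that share a collection need not differ alike in peak length.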

Additional observations from a re-analysis of the deposited data

Results flagged for a closer look

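Chromosome X lies outside the chromosomes compared above, and it was set apart because its peaks were more numerous in blastocysts. Blastocyst libraries had 6.97 and 10.8 Mb of H3K27me3 on X in 5867 and 7826 peaks, against 0.466 and 0.664 Mb in 746 and 960 peaks in morulae. X held 8.23 and 9.95% of the length on chromosomes 1 to 18 and X in blastocysts, against 4.32 and 4.89% in morulae, a difference of 4.49 percentage points. MII oocytes had 3.47 and 3.45%. The ratio of mean length on X, blastocyst over morula, was 15.7, above the 6.37 to 9.33 of chromosomes 1 to 18. The sex of the embryos is not labelled.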

How the results depend on the processing

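Covered length, broad share and median width stayed higher in blastocysts under each alternative run, covered length by 1.36 to 3.09 on the log2 scale. Distal share reversed with equal numbers of peaks (-2.19 points), fold 3.5 (-0.0612) and −log10 p 5 (-4.16). Spread share, 28.5% in the main analysis, was 33.9% with −log10 q 2, 24.0% with −log10 q 3, 43.8% with equal numbers, 39.9% with joined peaks, 17.4% against stretches in both morula libraries, 27.4% when touching meant 50% of a peak, 38.9% with fold 3.5, 42.4% with −log10 p 5, 44.9% and 48.3% for blastocyst peaks of −log10 q 2 and 3 against all morula peaks, and 23.4 to 29.1% leaving out 1 library. New share, 35.4%, was 57.6% with −log10 q 3, 16.9% with equal numbers, 41.8% and 15.3% beyond 5 and 50 kb, 68.1% against stretches in both morula libraries, 26.0% with fold 3.5, 21.5% with −log10 p 5, 15.3% and 6.05% for blastocyst peaks of −log10 q 2 and 3, and 33.4 to 51.2% leaving out 1 library. Kept share, 91.2%, was 84.7% and 78.0% with −log10 q 2 and 3, 72.5% with equal numbers, 94.2% joined, 81.8% with fold 3.5, 63.3% with −log10 p 5, and 82.3 to 91.3% leaving out 1 library. Gained genes numbered 627 and 335 with −log10 q 2 and 3, 414 with equal numbers, 394 with 50% of the window covered, 583 with fold 3.5, 268 with −log10 p 5, and 2192 to 3601 leaving out 1 library. Lost genes numbered 1 with −log10 q 3, 42 with equal numbers, 0 with 50% of the window covered, 15 with fold 3.5, 23 with −log10 p 5, and 12 to 105 leaving out 1 library. Requiring fewer libraries or longer cover sets part of these by construction, and the cause was otherwise not tested. FOXQ1 reversed to -485.5 bp and KRT19 to -146 bp with −log10 p 5, and MEST to -363.5 bp with equal numbers. Of 640 values for named genes, 376 moved by less than the spread, 193 moved more in the same direction, 68 (at 27 genes) went to 0 with no cover left at either stage, and 3 reversed. A replicate block left the differences at 2.92 (log2 length), 13.3 points, 290 bp and 2.62 points, with an exact sign-flip p of 0.5, the smallest possible. Whether the numbers pair the libraries is not labelled. The caller's background, a guide to depth, differed 2.43-fold, and short weak peaks are the least certain.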
